A study of Mus musculus with 22 samples.

Results

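TEAD factors are DNA-binding proteins that need a partner to switch genes on or off. Described here are the 4 mouse factors Tead1 to Tead4, the co-activators Yap1 and Wwtr1 (TAZ) that the Hippo kinase cascade holds out of the nucleus, and the vestigial-like cofactors Vgll2, Vgll3 and Vgll4, in tumours of 3 genotypes. The rows of these 9 genes were taken by symbol from a count table of 48440 gene IDs, and all 9 were among the 18929 genes that passed the filter on low counts. They were chosen with their levels across the groups known, so their levels and fold changes are a description, and no p-value is given for any of the 9.

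RNA came from 22 frozen mouse tumours in 6 groups. Tumours labelled with both SS18-SSX+/- and Snf5-/- (called combined below) were made with Myf5cre (4 libraries) or TATcre (4 libraries). Tumours labelled SNF5-/- (called Snf5-null) had Myf5 in the title (3 libraries, without the word Cre) or TATCre (5 libraries). Tumours labelled SS18-SSX+/- had Myf5 in the title (3 libraries) or no Cre stated (3 libraries). SS18-SSX is the fusion oncogene of synovial sarcoma, and Snf5 is the older name of Smarcb1, a core part of the BAF (SWI/SNF) complex that remodels chromatin and that SS18 also joins. Myf5-driven Cre acts in myogenic progenitors, and TATCre is a Cre protein that enters cells. Every library was a tumour, and no normal tissue stood beside them. No age is stated. The strain labels run from C57BL/6 to C57BL/27, with 22 different numbers in 22 libraries, so they name no usable strain. Each library is named by its group and title tag.

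Totals ran from 8642648 to 25177722 counts per library. Levels are given as CPM, read counts scaled to a common library size, with TMM factors that adjust for each library's composition. Smarcb1 itself had 0.909 to 3.66 CPM in combined tumours, 10.6 to 26.9 CPM in Snf5-null tumours and 47.1 to 111 CPM in SS18-SSX tumours, with no overlap. Each of the 22 libraries was closest in mean correlation to its own genotype. The combined TATCre library N49 stood apart, with a mean r of 0.860 to the other combined libraries, 0.841 to Snf5-null libraries and 0.844 to SS18-SSX libraries across genes. Its tag, N49, is also that of a Snf5-null TATCre library. The Snf5-null TATCre library N1 stood apart from the other 4 of its group in several members. Several results that change with these 2 libraries, though not all, are given with and without them. The descriptions carry 3 number series, 1 for all combined and Snf5-null libraries and 1 for each SS18-SSX group, so in any comparison with SS18-SSX tumours genotype and number series cannot be told apart. Between the SS18-SSX groups, Cre label and number series cannot be told apart either. Separate animals are not stated for all libraries (N43L and N43R share a tag), so a p-value reflects the spread between these samples only, some of which may be technical.

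When the Hippo kinases are active, they phosphorylate YAP and TAZ, which then stay in the cytoplasm. When they are not, YAP and TAZ enter the nucleus, bind TEAD factors and switch on genes for growth and matrix such as Ccn1, Ccn2 and Ankrd1. VGLL proteins bind the same face of TEAD factors. VGLL4 competes with YAP and represses, VGLL2 takes part in skeletal muscle differentiation, and VGLL3 is found with TEAD factors in muscle and mesenchymal cells. Much of this control acts on protein, which RNA levels do not show. In bulk tumour RNA, fewer cells of a type and less RNA per cell cannot be told apart.

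TEAD factors read the hexamer GGAATG, or CATTCC on the other strand. RefSeq promoters (GRCm38.p6, 250 bases before to 50 after a gene's start) matched 7 of the 9 members, and 5 of these 7 hold the hexamer on either strand (Tead3, Yap1, Wwtr1, Vgll3 and Vgll4), against 16.6% of the 27025 genes with a promoter in the table. Those of Tead2 and Vgll2 do not hold these letters in this window. The promoters of 3 members are shown, those with hexamers whose levels set the groups apart most clearly, 5′ to 3′ on the strand of the gene, with the hexamer in capitals. It begins 63 bases before the start in Vgll3, 141 bases before it in Yap1 and 136 bases before it in the Wwtr1 promoter shown. A match is a description of letters, not a binding site.
Vgll3 (chr16:65814939-65815238, plus strand): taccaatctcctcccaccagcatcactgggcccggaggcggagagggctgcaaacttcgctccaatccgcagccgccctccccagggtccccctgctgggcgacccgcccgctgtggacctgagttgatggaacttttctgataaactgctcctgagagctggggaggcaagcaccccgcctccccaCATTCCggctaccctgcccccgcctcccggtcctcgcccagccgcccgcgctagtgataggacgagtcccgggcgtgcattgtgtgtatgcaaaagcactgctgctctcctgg
Yap1 (chr9:8004547-8004846, minus strand): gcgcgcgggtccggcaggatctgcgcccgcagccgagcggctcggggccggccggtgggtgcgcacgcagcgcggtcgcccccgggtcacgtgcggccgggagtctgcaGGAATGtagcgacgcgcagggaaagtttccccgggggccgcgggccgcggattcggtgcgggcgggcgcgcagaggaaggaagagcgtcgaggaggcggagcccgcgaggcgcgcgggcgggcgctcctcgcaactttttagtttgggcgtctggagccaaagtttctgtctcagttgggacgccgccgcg
Wwtr1 (chr3:57575861-57576160, minus strand): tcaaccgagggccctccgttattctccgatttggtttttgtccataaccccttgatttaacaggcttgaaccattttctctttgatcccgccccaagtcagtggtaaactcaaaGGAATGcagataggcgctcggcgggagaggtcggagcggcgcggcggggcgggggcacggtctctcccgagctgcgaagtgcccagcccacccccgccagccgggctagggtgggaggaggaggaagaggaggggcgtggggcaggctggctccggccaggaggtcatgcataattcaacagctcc

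Taken by genotype, the members did not move as 1 group. In combined against Snf5-null tumours, 2 of the 9 were called higher (Tead2 and Yap1) and 3 lower (Wwtr1, Vgll3 and Vgll4), where called means an adjusted p below 0.05 in edgeR's quasi-likelihood test over all genes. Of all tested genes, 29.1% were called higher and 20.5% lower in that comparison. In combined against SS18-SSX tumours, 2 members were called higher (Yap1 and Vgll3) and 2 lower (Tead4 and Vgll4), beside 23.1% and 21.9% of all genes. In Snf5-null against SS18-SSX tumours, 1 was called higher (Vgll3) and 3 lower (Tead2, Tead4 and Yap1), beside 22.3% and 25.9% of all genes. Since the members were chosen on these levels, nothing is read from these counts. The libraries of the 2 genotypes did not overlap in CPM for 1 member in combined against Snf5-null tumours (Yap1), beside 9.33% of all genes. They did not overlap for 2 members in combined against SS18-SSX tumours (Yap1 and Tead4), beside 8.38%, and for 2 in Snf5-null against SS18-SSX tumours (Vgll3 and Tead2), beside 18.3%. The median log2 fold change of the members was -0.44, -0.43 and -0.34 in these comparisons, in the order given, and that of all tested genes was 0.23, -0.09 and -0.06. The comparisons share libraries pairwise, so they are not independent of each other. With RLE in place of TMM scaling, the all-gene median of combined against Snf5-null tumours was 0.12, and 51.2% of calls in place of 58.7% were higher. The direction of that balance also turned with 1 library left out. Without any 1 of 11 libraries (the 6 SS18-SSX, the 3 Snf5-null Myf5 and the combined Myf5Cre N1 and N4) 44.7% to 49.3% of calls were higher, with 3134 higher calls in place of 5509 without the Snf5-null Myf5 library N30. Without any 1 of the other 11 it was 56.9% to 63.7%. In Snf5-null against SS18-SSX tumours leaving out any 1 of the same 11 libraries gave 53.9% to 55.7% higher, against 46.2% with all libraries.

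**Figure D1:**
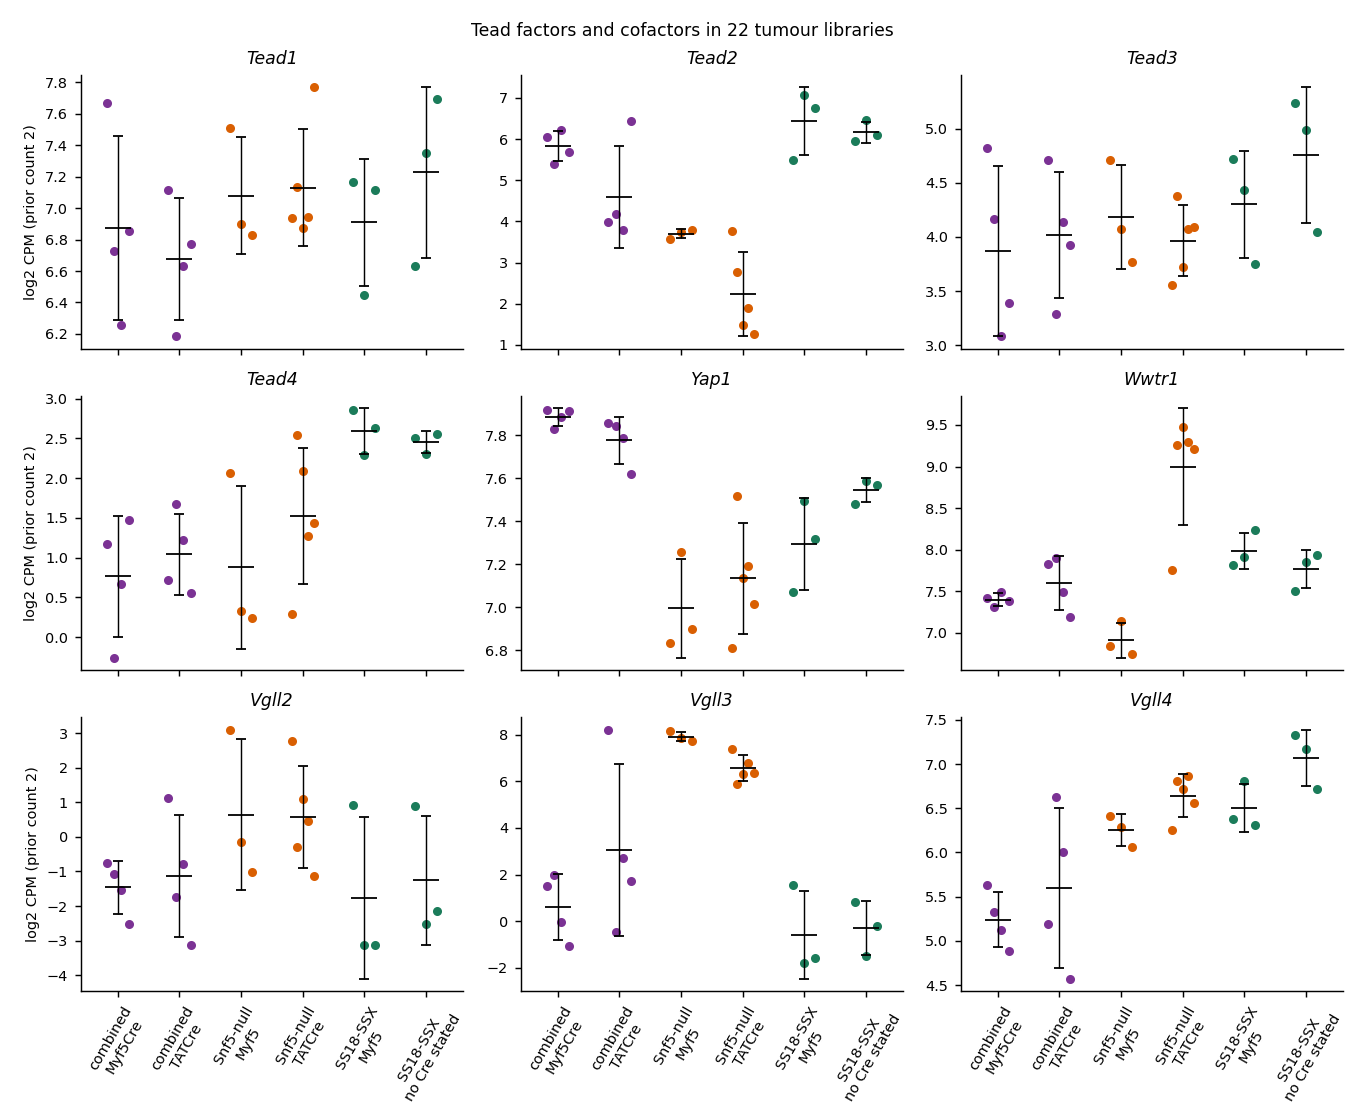
Level of each member in every library (vertical axis: log2 CPM with a prior count of 2) by group. Points are libraries, the horizontal bar and whiskers are the group mean and SD, and colours mark the genotype. Yap1 is highest in the combined groups, Tead2 lowest in the Snf5-null groups, and Vgll3 is high in all 8 Snf5-null libraries and in 1 combined TATCre library.

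**Figure D2:**
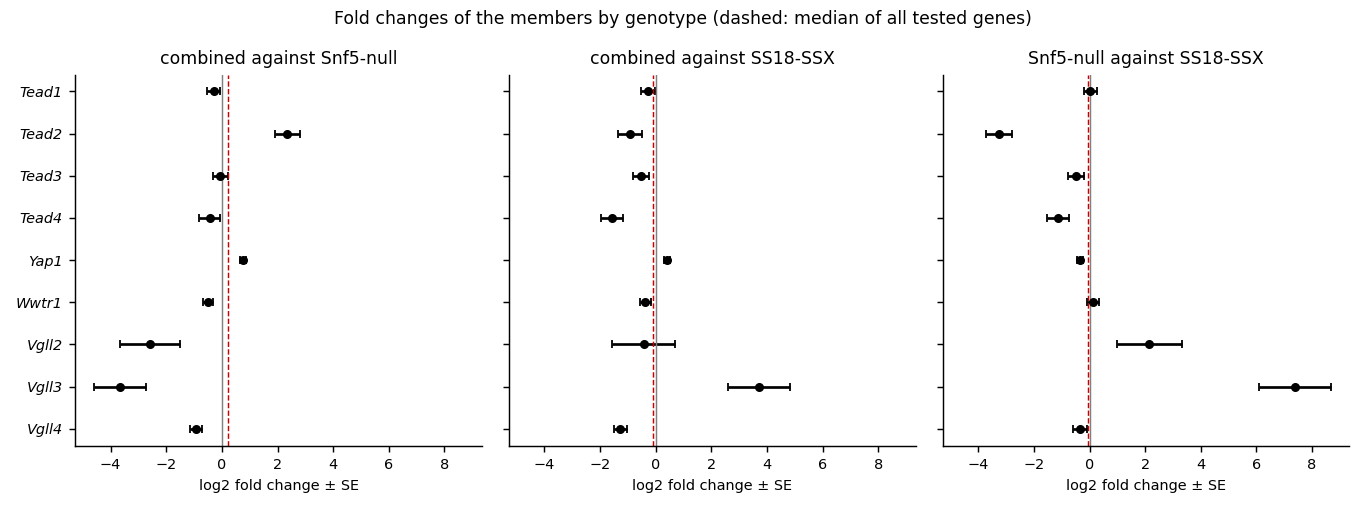
Log2 fold change of each member with its standard error (horizontal axis) in the 3 genotype comparisons, the genotype named first over the one named second. The solid line marks 0 and the dashed line the median of all tested genes. Vgll3 spans the widest range, from -3.66 to 7.39, and Tead1 stays within 0.30 of 0.

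Among the Tead factors, Tead1 differed little and Tead2 a great deal. Tead1, the broadly expressed factor of the family (chr7:112679318-112906807, plus strand, GRCm38), had a median of 107 CPM in combined tumours, 123 CPM in Snf5-null tumours and 141 CPM in SS18-SSX tumours. Its ranges overlapped, at 72.6 to 203 CPM in combined, 114 to 218 CPM in Snf5-null and 87.1 to 207 CPM in SS18-SSX libraries, although 5 of the 8 combined libraries lay below the lowest Snf5-null one. The log2 fold changes were -0.30 ± 0.22 (SE) for combined against Snf5-null, -0.28 ± 0.24 for combined against SS18-SSX and 0.02 ± 0.24 for Snf5-null against SS18-SSX tumours. Leaving out the combined Myf5Cre library N1 made the first of these -0.60 and past the call rule.

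Tead2, a factor known from embryonic tissue (chr7:45215753-45233644, plus strand), was the member that set the Snf5-null tumours lowest. Combined Myf5Cre libraries had 66.0, 41.7, 74.0 and 51.3 CPM, and combined TATCre libraries 15.8, 18.1, 13.7 and 86.6 CPM. Snf5-null Myf5 libraries had 11.9, 13.2 and 13.8 CPM, and Snf5-null TATCre libraries 13.5, 6.71, 2.698, 3.61 and 2.29 CPM. SS18-SSX Myf5 libraries had 45.1, 133 and 108 CPM, and SS18-SSX libraries with no Cre stated 61.8, 87.5 and 67.9 CPM. All 8 Snf5-null libraries lay below all 6 SS18-SSX libraries, and 7 of 8 combined libraries lay above all Snf5-null ones, the exception being combined TATCre 78777 at 13.7 CPM. Within the combined TATCre group, library 78780 was high and the other 3 were near the Snf5-null range. The log2 fold change was 2.36 ± 0.44 for combined against Snf5-null, -0.91 ± 0.43 for combined against SS18-SSX, which was not called, and -3.27 ± 0.47 for Snf5-null against SS18-SSX tumours. The first and last met the call rule in all 30 alternative settings. Without library 78780, combined against SS18-SSX was -1.41 and met it, as it did with DESeq2. Tead2 shares 13 exonic bases with Cd37 on the other strand, and no source used here states whether counting used strand. Cd37 itself reached at most 9.94 CPM.

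Tead3 and Tead4 were low. Tead3 (chr17:28331671-28350817, minus strand) averaged 16.6 ± 7.38 CPM in combined (SD, n = 8), 16.9 ± 4.64 CPM in Snf5-null (n = 8) and 24.4 ± 9.18 CPM in SS18-SSX tumours (n = 6), and no comparison was called. Without the combined Myf5Cre library N1, combined against SS18-SSX was -0.72 and called. Tead4, known from the trophectoderm and from regenerating muscle (chr6:128224288-128300823, minus strand), ran from 0.722 to 3.08 CPM in combined, from 1.06 to 5.70 CPM in Snf5-null and from 4.78 to 7.14 CPM in SS18-SSX libraries. These are 12 to 50, 17 to 90 and 51 to 165 counts, so the lowest values rest on few reads. All combined libraries lay below all SS18-SSX libraries, with a log2 fold change of -1.58 ± 0.40, a call met in 29 of 30 settings and not in the combined TATCre against the SS18-SSX group with no Cre stated (-1.52). In Snf5-null against SS18-SSX tumours it was -1.14 ± 0.40, a call met in 15 of 30 settings only and lost, for example, when any 1 SS18-SSX library was left out. Leaving out 1 of the Snf5-null Myf5 libraries N31 and N33 or of the combined Myf5Cre libraries N1 and N4 ended it as well. With each of these libraries left out the all-gene median also moved, from -0.06 to values from 0.07 to 0.11. The part of that shift in the lost Tead4 call was not tested. Tead3 and Tead4 share 10 of their 50-base exonic stretches, so a small part of their reads could be split between them.

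Set on a per-length scale, the most abundant Tead transcript differed by genotype. With CPM divided by the length of all exons in kb, Tead1 was the highest Tead in 4 of 8 combined, 8 of 8 Snf5-null and 2 of 6 SS18-SSX libraries, and Tead2 in the others. The same counts came from the longest coding transcript, a definition added after the data had been seen. The ratio of Tead2 to Tead1 per kb had a median of 1.02 in combined tumours (0.323 to 2.74), 0.16 in Snf5-null tumours (0.0298 to 0.343) and 1.64 in SS18-SSX tumours (0.888 to 4.34). Snf5-null ratios lay below all SS18-SSX ratios and overlapped the lowest combined ones.

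**Figure D3:**
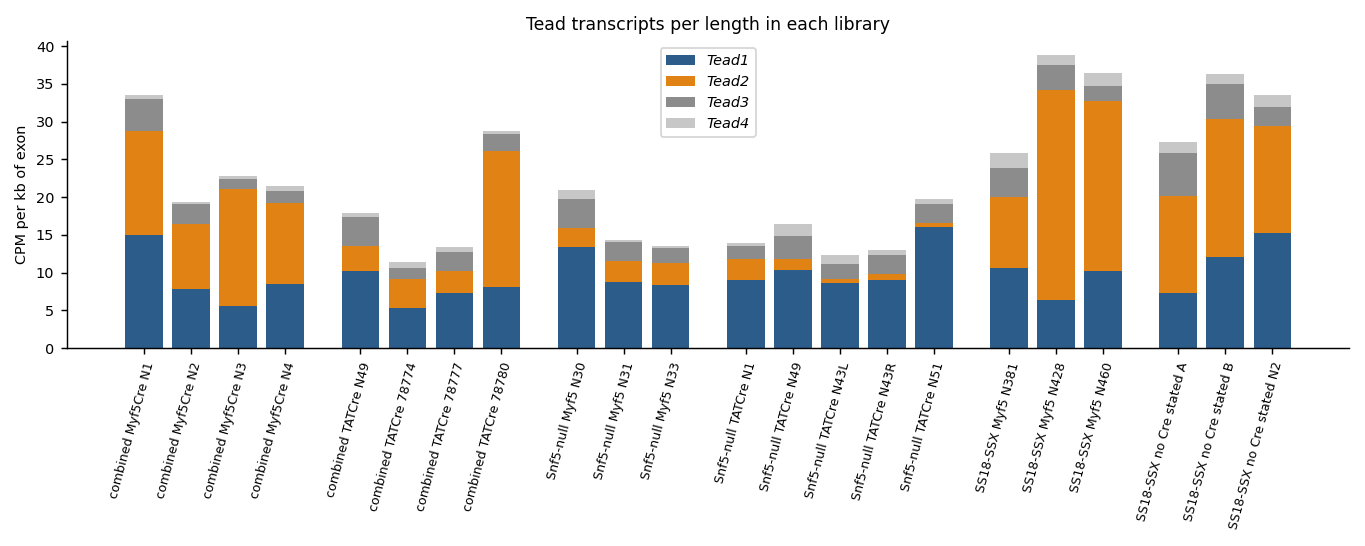
Level per exon length (vertical axis: CPM per kb) of Tead1 to Tead4 stacked in each of the 22 libraries. The Tead2 share is small in all 8 Snf5-null libraries and large in 4 of the 6 SS18-SSX and 4 of the 8 combined libraries, where it exceeds Tead1.

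Of the co-activators, Yap1 was highest in combined tumours. Yap1 (chr9:7931999-8004596, minus strand) had 241, 227, 236 and 241 CPM in combined Myf5Cre and 232, 229, 220 and 196 CPM in combined TATCre libraries. It had 114, 153 and 119 CPM in Snf5-null Myf5 and 112, 183, 141, 146 and 129 CPM in Snf5-null TATCre libraries. It had 134, 180 and 159 CPM in SS18-SSX Myf5 libraries and 179, 192 and 190 CPM in SS18-SSX libraries with no Cre stated. Every combined library lay above every library of the other genotypes, while Snf5-null and SS18-SSX libraries overlapped. The differences were modest in size, at 0.75 ± 0.11 for combined against Snf5-null and 0.41 ± 0.12 for combined against SS18-SSX tumours on the log2 scale. The first met the call rule in all 30 settings, the second in 27. The second was 0.11 in the combined TATCre against the SS18-SSX group with no Cre stated, and 0.44 and not called in the Myf5-labelled groups alone. With no filter on low counts it was 0.27 and not called. Snf5-null against SS18-SSX gave -0.34 ± 0.12, a call met in 14 of 30 settings. It was lost when any 1 of the 6 SS18-SSX libraries, any 1 of the 3 Snf5-null Myf5 libraries or the combined Myf5Cre library N1 or N4 was left out. Each of these omissions also moved the all-gene median, from -0.06 to values from 0.04 to 0.11. The part of that shift in the lost Yap1 call was not tested.

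Wwtr1, which encodes TAZ (chr3:57455649-57575910, minus strand), instead varied with the Cre label inside the Snf5-null tumours. Combined Myf5Cre libraries had 171, 159, 180 and 167 CPM, and combined TATCre libraries 227, 238, 180 and 147 CPM. Snf5-null Myf5 libraries had 115, 141 and 107 CPM, and Snf5-null TATCre libraries 216 (N1), 614, 712, 626 and 592 CPM. SS18-SSX Myf5 libraries had 225, 241 and 301 CPM, and those with no Cre stated 182, 232 and 245 CPM. The 3 Snf5-null Myf5 libraries were the lowest of all 22 and the Snf5-null TATCre libraries other than N1 were the 4 highest. The log2 fold change of the Myf5 label against TATCre was -2.19 ± 0.30 in Snf5-null tumours, the only 1 of the 9 members called there, beside 4.97% of all genes. It was -2.42 and called without the libraries N49 and N1 that stood apart, and Tead2 then met the call rule too, at 1.74 in place of 1.17. In combined tumours it was -0.23 ± 0.27, and edgeR called 0 of the 9 members (1 lower at an unadjusted p below 0.05), beside 1.82% of all genes. Between the SS18-SSX Myf5 and no-Cre-stated groups edgeR called 0 members as well (0 at an unadjusted p below 0.05), beside 2.11% of all genes. Whether the Cre effect on Wwtr1 differed between Snf5-null and combined tumours is given by the 2 values only, with no test.

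The genotype comparison for Wwtr1 therefore averaged unlike groups. Its log2 fold change was -0.50 ± 0.19 for combined against Snf5-null tumours, -1.57 in the TATCre groups alone and 0.33, the opposite direction, in the Myf5-labelled groups alone. The call was met in 19 of 30 settings and was lost when the Snf5-null TATCre library N49, N43L, N43R or N51, the combined TATCre library N49, 78777 or 78780, or the combined Myf5Cre library N2 or N3 was left out, with values from -0.51 to -0.38. It was also lost, at -0.40, when N43L and N43R, which share a tag, were summed into 1 library. Snf5-null against SS18-SSX tumours gave 0.12 and was not called, but split by Cre in opposite directions, at -1.06 in the Myf5-labelled groups and 1.30 in the Snf5-null TATCre against the SS18-SSX group with no Cre stated, both called. Combined against SS18-SSX gave -0.37, called in 3 of 30 settings. Per kb, Wwtr1 exceeded Yap1 in all 22 libraries with all exons counted, but Yap1 exceeded Wwtr1 in 8 of 8 combined, 3 of 8 Snf5-null and 1 of 6 SS18-SSX libraries with the longest coding transcript, so the order of these 2 depends on the length used. By either length the ratio of Wwtr1 to Yap1 had its lowest median in combined tumours, at 1.46 against 5.11 in Snf5-null and 2.55 in SS18-SSX tumours with all exons.

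Vgll3 showed the widest differences of the 9. Vgll3 (chr16:65815257-65866368, plus strand; its promoter is printed above) had 2.73, 3.85, 0.854 and 0.364 CPM in combined Myf5Cre libraries, and 299 (N49), 0.617, 6.37 and 3.23 CPM in combined TATCre libraries. Snf5-null Myf5 libraries had 284, 235 and 213 CPM, and Snf5-null TATCre libraries 167, 59.6, 80.1, 110 and 82.5 CPM. SS18-SSX Myf5 libraries had 2.83, 0.174 and 0.22 CPM, and those with no Cre stated 1.64, 0.237 and 0.737 CPM. All 8 Snf5-null libraries were thus above 59 CPM, all 6 SS18-SSX and 7 of 8 combined libraries were at or below 6.37 CPM, and the combined TATCre library N49 had the highest value of all 22. Snf5-null against SS18-SSX gave a log2 fold change of 7.39 ± 1.29, which met the call rule in all 30 settings. Combined against Snf5-null gave -3.66 ± 0.94, and -5.86 without the combined library N49. That call was met in 28 of 30 settings and lost in the TATCre groups alone (-0.39), which hold that library, and with genotype alone in the fit (-2.03), and in the Myf5-labelled groups alone the value was -7.10. Combined against SS18-SSX gave 3.72 ± 1.11, and 1.52 and not called without that library. In the Myf5-labelled groups alone it was 0.75 and not called. By Cre label the Myf5 group was above the TATCre group in Snf5-null tumours without overlap, but the log2 fold change of 1.29 ± 1.19 was not called. In combined tumours the Myf5Cre group against the TATCre group gave -5.29 ± 1.44, not called with all libraries and called in 4 of 26 recomputed settings, and -0.73 without the libraries N49 and N1.

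Markers of macrophages and other myeloid cells moved with Vgll3 across the genotypes. Their 12 genes summed to 110 to 1043 CPM in combined, 2385 to 9414 CPM in Snf5-null and 122 to 843 CPM in SS18-SSX libraries, and none was at 0 in any library. At an adjusted p below 0.05 all 12 were lower in combined against Snf5-null tumours and higher in Snf5-null against SS18-SSX tumours. Those calls stand beside 20.5% and 22.3% of all genes. The list median was -4.09 and 3.82, against 0.23 and -0.06 for all genes. In the combined library N49, the 1 with the most Vgll3 RNA, this sum was 1043 CPM, the highest of the combined libraries and below every Snf5-null library. In the Snf5-null Myf5 libraries N30, N31 and N33 the sums were 8555, 4765 and 4928 CPM, beside 284, 235 and 213 CPM of Vgll3. In the Snf5-null TATCre libraries N1, N49, N43L, N43R and N51 they were 9414, 2385, 6380, 7541 and 4656 CPM, beside 167, 59.6, 80.1, 110 and 82.5 CPM of Vgll3. Within each of these groups the library with the highest sum also had the most Vgll3 RNA, and the TATCre library with the lowest sum had the least. Other pairs went the other way. The Myf5 library N31 had a lower sum than N33 but more Vgll3 RNA, and so had the TATCre library N51 beside N43L. The part of these cells in the Vgll3 difference was not tested. Of 11 fibroblast and matrix markers 7 were lower and 2 higher in combined against Snf5-null tumours, beside 20.5% and 29.1% of all genes. In Snf5-null against SS18-SSX tumours 4 were higher and 2 lower, beside 22.3% and 25.9% of all genes. The markers had list medians of -2.07 and 0.46 there. Their summed levels overlapped between all genotypes, at 713 to 10343 CPM in combined, 6643 to 22794 CPM in Snf5-null and 806 to 15547 CPM in SS18-SSX libraries, and the part of these cells was not tested either.

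Vgll4, the repressive cofactor (chr6:114860628-114969994, minus strand), was lowest in combined tumours. It had 49.4, 40.2, 34.7 and 29.5 CPM in combined Myf5Cre and 36.5, 99.1, 64.0 and 23.7 CPM in combined TATCre libraries. It ran from 66.6 to 116 CPM in Snf5-null (median 89.8) and from 79.3 to 161 CPM in SS18-SSX libraries (median 109). The combined TATCre library 78774 lay within the range of both other genotypes, and the other 7 combined libraries lay below both. The log2 fold change was -0.93 ± 0.23 for combined against Snf5-null, called in 29 of 30 settings, and -1.27 ± 0.24 for combined against SS18-SSX tumours, called in all 30. In the TATCre groups alone the first was not called. Snf5-null against SS18-SSX gave -0.35 ± 0.24 and was not called. Vgll4 was the highest Vgll transcript per kb in 7 of 8 combined and 6 of 6 SS18-SSX libraries by either length. In Snf5-null tumours it led in 4 of 8 libraries with all exons, where Vgll3 led in the other 4, and in 8 of 8 with the longest coding transcript.

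Vgll2 (chr10:52022502-52028471, plus strand) was close to the floor of detection. Its counts ran from 0 to 28 in combined, from 6 to 151 in Snf5-null and from 0 to 36 in SS18-SSX libraries. The highest levels were 8.53 CPM in Snf5-null Myf5 N30 and 6.68 CPM in Snf5-null TATCre N1, and every other library was at 2.05 CPM or less. Values were 0 in the combined TATCre library 78780 and in the SS18-SSX Myf5 libraries N428 and N460. No genotype comparison was called, at -2.58 ± 1.08 for combined against Snf5-null, -0.43 ± 1.13 for combined against SS18-SSX and 2.16 ± 1.17 for Snf5-null against SS18-SSX tumours. These calls varied with the libraries used. The first was met in 11 of 30 settings, with values from -3.61 to -1.49, among them DESeq2, genotype alone and leaving out 1 of several libraries (the Snf5-null Myf5 N31 or N33, the combined TATCre N49 or any SS18-SSX library but N2). The last of the 11 left out the combined library N49 and the Snf5-null library N1 together. Without the SS18-SSX Myf5 library N381 the second was 2.74 and not called, and the third 5.46 and called. Without the SS18-SSX library A the third was 3.68 and called. Mature skeletal muscle markers were lower too in combined against Snf5-null tumours. Of 15 genes 9 were lower and 0 higher by edgeR, beside 20.5% and 29.1% of all genes. These markers had a list median of -3.04, and 0 were higher at an unadjusted p below 0.05 or by DESeq2. They also varied widely between libraries. The 15 genes summed to 226 to 2018 CPM in combined, 137 to 20518 CPM in Snf5-null and 8.74 to 9183 CPM in SS18-SSX libraries. The 4 SS18-SSX libraries with the least Vgll2 had sums of 8.74 to 259 CPM, and the other 2, N381 and A, had 4268 and 9183 CPM. The Snf5-null TATCre library N1, at 6.68 CPM of Vgll2, had 2340.5 CPM. The other 4 of that group, at 0.342 to 2.04 CPM of Vgll2, had 1736 to 20518 CPM. Snf5-null Myf5 N30, at 8.53 CPM of Vgll2, had 6695 CPM, and N31 and N33 had 332 and 137 CPM. In Snf5-null against SS18-SSX tumours 0 of the 15 genes were higher and 1 lower, beside 22.3% and 25.9% of all genes (list median 1.20). The part of muscle tissue in these values was not tested.

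For the 3 members with the widest range of group means, the non-member genes with the most similar log2 CPM over the 22 libraries were found among all tested genes. The libraries share their genotype groups, so r is also given after each group's mean was subtracted. For Vgll3 these were Fgr, a Src-family kinase of myeloid cells (r = 0.947, and 0.794 within groups), Lgals1, a galectin (0.939 and 0.788), and Ccr1, a chemokine receptor of myeloid cells (0.936 and 0.694). For Tead2 they were Zfp184, a zinc finger gene (0.956 and 0.847), Pigl, an enzyme of GPI anchor synthesis (0.944 and 0.755), and Sulf2, a heparan sulfate sulfatase (0.916 and 0.591). For Vgll2 they were Des, the muscle intermediate filament desmin (0.905 and 0.905), Cavin4, a muscle caveolar protein (0.888 and 0.893), and Mylpf, a fast-muscle myosin light chain that is also among the muscle markers above (0.871 and 0.920). These genes were picked for their r, and no p is given.

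The genes that YAP, TAZ and TEAD factors are known to switch on split in both directions. A list of 22 such targets, all tested, was set against the genotypes with adjusted p-values over all genes. This list and the Hippo, AP-1 and marker lists were, like the members, chosen with earlier results of these data known. Their p-values and counts are therefore a description too. In combined against Snf5-null tumours 6 were higher and 10 lower, beside 29.1% and 20.5% of all genes. The list median was -0.58, against 0.23 for all genes. Higher were Fjx1 (3.76 ± 0.47, edgeR adjusted p = 5.16e-06) and Foxf2, a forkhead factor (3.69 ± 0.50, edgeR adjusted p = 1.48e-05). So were Tgfb2, a growth factor (2.96 ± 0.77, edgeR adjusted p = 0.00441), and Amotl2, a scaffold that binds YAP (2.18 ± 0.47, edgeR adjusted p = 0.000963). Lower by the largest amounts were Ankrd1, a muscle ankyrin repeat protein (-5.66 ± 1.24, edgeR adjusted p = 0.00121), Myof, a membrane-repair ferlin (-4.26 ± 0.27, edgeR adjusted p = 4.45e-09), F3, tissue factor (-3.90 ± 0.72, edgeR adjusted p = 0.000275), and Axl, a receptor tyrosine kinase (-3.69 ± 0.39, edgeR adjusted p = 9.21e-07). Myof ran from 7.84 to 35.8 CPM in combined and from 169 to 575 CPM in Snf5-null libraries, and Axl from 13.5 to 107 CPM in combined and from 288 to 725 CPM in Snf5-null libraries, neither with overlap. Foxf2 lay without overlap in the other direction, at 15.0 to 41.1 CPM in combined and 0.606 to 6.33 CPM in Snf5-null libraries. Such a lack of overlap was seen in 9.33% of all genes. In the TATCre groups alone 2 targets in place of 6 were higher, and Amotl2, Tgfb2 and F3 were not called.

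In combined against SS18-SSX tumours 3 of the 22 targets were higher and 7 lower, beside 23.1% and 21.9% of all genes. The list median was -0.96, against -0.09 for all genes. The lower ones with the largest changes were Nt5e, the ectonucleotidase CD73 (-4.15 ± 0.31, edgeR adjusted p = 2.13e-07), Crim1, a BMP-binding membrane protein (-2.98 ± 0.31, edgeR adjusted p = 4.40e-06), Rbms3, an RNA-binding protein (-2.43 ± 0.65, edgeR adjusted p = 0.00554), and Myof (-2.17 ± 0.26, edgeR adjusted p = 1.45e-05). All 4 lay without overlap, beside 8.38% of all genes. Nt5e for example was at 0.901 to 3.33 CPM in combined and 22.4 to 51.5 CPM in SS18-SSX libraries. The 3 higher ones, Nuak2 (a stress kinase), Amotl2 and Igfbp3, lay near the threshold. That count was 0 with RLE scaling and ran from 0 to 5 with 1 library left out. It was 0 or 1 without the SS18-SSX library N381, N428, A, B or N2, the Snf5-null Myf5 library N31 or N33 or the combined Myf5Cre library N3 or N4, and 5 without any 1 Snf5-null TATCre library.

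In Snf5-null against SS18-SSX tumours 7 of the 22 targets were higher and 9 lower, beside 22.3% and 25.9% of all genes. The list median was -0.30, against -0.06 for all genes. Higher were F3 (4.69 ± 0.85, edgeR adjusted p = 0.000218), Ankrd1 (3.35 ± 1.25, edgeR adjusted p = 0.0333), Ccdc80, a secreted protein (2.30 ± 0.74, edgeR adjusted p = 0.0152), and Axl (2.15 ± 0.41, edgeR adjusted p = 0.000318) among others. Lower were Foxf2 (-4.64 ± 0.54, edgeR adjusted p = 3.98e-06), Tgfb2 (-2.76 ± 0.79, edgeR adjusted p = 0.00774), Fjx1 (-2.69 ± 0.46, edgeR adjusted p = 0.000118) and Arhgef17 (-1.95 ± 0.31, edgeR adjusted p = 7.41e-05). The Ankrd1 call was lost without the Snf5-null TATCre library N1 or the SS18-SSX library B or N2 of no stated Cre. The Ccdc80 call was lost without the Snf5-null Myf5 library N30. In the TATCre groups with the SS18-SSX group of no stated Cre 3 in place of 9 targets were lower. Macrophage, matrix and muscle markers moved with genotype or library as given above, and their part in these target levels was not tested.

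**Figure D4:**
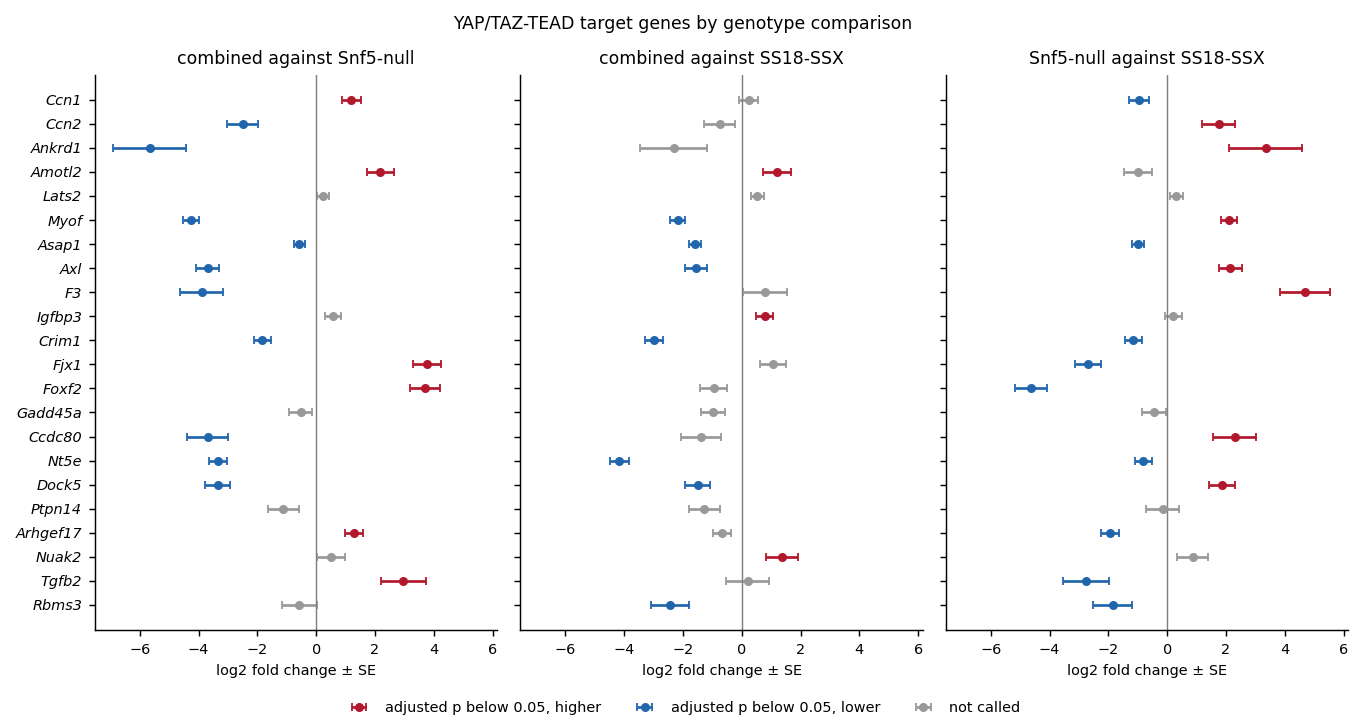
Log2 fold change with its standard error (horizontal axis) of the 22 YAP/TAZ-TEAD target genes in the 3 genotype comparisons, the genotype named first over the one named second. Red and blue points passed an adjusted p of 0.05 over all genes, higher or lower, and grey points did not. In combined against Snf5-null tumours 6 lie to the right and 10 to the left among the coloured points, beside 29.1% and 20.5% of all genes.

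The best known targets, Ccn1 (CYR61) and Ccn2 (CTGF), both secreted matrix proteins, and Ankrd1 were followed library by library, since 2 of them vary with the Cre label as Wwtr1 does. The Ccn1 and Ankrd1 promoters, shown because both hold the hexamer, are given 5′ to 3′ on the strand of the gene with it in capitals. Of the 15 targets with a RefSeq promoter, 7 hold it, against 16.6% of the 27025 genes with a promoter in the table. Ccn2 is not among the 15.
Ccn1 (chr3:145649936-145650235, minus strand): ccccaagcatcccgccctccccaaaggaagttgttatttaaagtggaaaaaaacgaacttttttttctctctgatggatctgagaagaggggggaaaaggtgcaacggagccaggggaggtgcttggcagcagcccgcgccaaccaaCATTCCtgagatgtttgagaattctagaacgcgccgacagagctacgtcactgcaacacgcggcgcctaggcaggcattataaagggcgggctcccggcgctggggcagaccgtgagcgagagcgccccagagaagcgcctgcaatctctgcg
Ankrd1 (chr19:36119795-36120094, minus strand): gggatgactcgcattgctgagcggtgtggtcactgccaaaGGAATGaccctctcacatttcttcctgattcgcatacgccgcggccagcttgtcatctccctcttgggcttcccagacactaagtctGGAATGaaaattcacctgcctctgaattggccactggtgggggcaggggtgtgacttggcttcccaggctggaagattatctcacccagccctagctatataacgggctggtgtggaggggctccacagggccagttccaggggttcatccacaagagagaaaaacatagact

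Ccn1 had 141, 98.7, 181 and 160 CPM in combined Myf5Cre and 221, 78.6, 102 and 66.3 CPM in combined TATCre libraries. It had 24.5, 13.0 and 14.7 CPM in Snf5-null Myf5 and 70.4 (N1), 273, 210, 237 and 150 CPM in Snf5-null TATCre libraries. It had 136, 62.4 and 68.8 CPM in SS18-SSX Myf5 libraries and 63.3, 179 and 172 CPM in those with no Cre stated. The 3 Snf5-null Myf5 libraries were the lowest of the 22. The Myf5 label against TATCre gave -3.44 ± 0.54 in Snf5-null tumours (edgeR adjusted p = 0.00178) and 0.31 ± 0.44 in combined tumours (edgeR adjusted p = 0.801), and the difference between these 2 effects was -3.74 ± 0.67 (edgeR adjusted p = 0.00938, beside 2.42% of all genes called for such a difference). By genotype Ccn1 was called higher in combined against Snf5-null tumours (1.19 ± 0.32, edgeR adjusted p = 0.00577), although the mean was 131 ± 53.9 CPM in combined and 124 ± 107 CPM in Snf5-null libraries (SD, n = 8 each). On the log2 CPM scale the means were 6.93 ± 0.61 in combined and 6.16 ± 1.85 in Snf5-null libraries (SD, n = 8 each). The comparison instead weights the Myf5 and TATCre groups of a genotype equally, whatever their number of libraries. Mean log2 CPM was 4.07 in Snf5-null Myf5, 7.41 in Snf5-null TATCre, 7.15 in combined Myf5Cre and 6.71 in combined TATCre libraries. With genotype alone in the fit the log2 fold change was -0.051, and in the TATCre groups alone it was -0.76.

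Ccn2 had 27.7, 23.8, 19.6 and 20.1 CPM in combined Myf5Cre and 12.6, 41.6, 80.1 and 21.3 CPM in combined TATCre libraries. It had 78.0, 35.6 and 38.1 CPM in Snf5-null Myf5 and 63.8 (N1), 718, 452, 873 and 694 CPM in Snf5-null TATCre libraries. It had 145, 18.2 and 19.4 CPM in SS18-SSX Myf5 libraries and 29.96, 40.5 and 53.0 CPM in those with no Cre stated. Only the Snf5-null TATCre libraries other than N1 passed 400 CPM, the same 4 libraries that had the most Wwtr1. The Myf5 label against TATCre gave -3.47 ± 0.84 in Snf5-null tumours (edgeR adjusted p = 0.0227), and -3.77 without the libraries N49 and N1 (edgeR adjusted p = 0.00175). That call was lost without the Snf5-null Myf5 library N31 or N33. The genotype values were -2.50 ± 0.52 for combined against Snf5-null (edgeR adjusted p = 0.000774) and 1.75 ± 0.56 for Snf5-null against SS18-SSX tumours (edgeR adjusted p = 0.0149), and in the Myf5-labelled groups alone neither was called. Ccn2 shares 665 exonic bases with Gm15270 on the other strand, whose own counts reached at most 2.31 CPM. Fibroblast and matrix markers summed to 13909 to 22794 CPM in the Snf5-null TATCre libraries other than N1 and to 6948 CPM in N1. In Snf5-null Myf5 N30, N31 and N33 the sums were 14073, 8516 and 6643 CPM. With the Myf5 label against TATCre, 1 of these markers, Pdgfra, was lower in Snf5-null tumours (-5.31), beside 4.97% of all genes called. At an unadjusted p below 0.05 edgeR gave 1 of 11 lower and 0 higher. The part of these cells in Wwtr1, Ccn1 and Ccn2 was not tested.

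Ankrd1 went the other way with the Cre label. It had 2.46, 3.79, 0.310 and 0.242 CPM in combined Myf5Cre and 5.27, 0.863, 6.84 and 1.88 CPM in combined TATCre libraries. It had 150, 343 and 226 CPM in Snf5-null Myf5 and 282 (N1), 25.6, 26.0, 4.81 and 5.86 CPM in Snf5-null TATCre libraries. It had 69.9, 0.304 and 0.147 CPM in SS18-SSX Myf5 libraries and 17.9, 1.31 and 1.64 CPM in those with no Cre stated. The Snf5-null TATCre library N1 thus sat with the Snf5-null Myf5 libraries in Ankrd1, in Ccn2 and, at 216 CPM, nearer to them in Wwtr1. The Cre difference of Ankrd1 in Snf5-null tumours, 1.80 ± 1.43, was not called, and was 3.91 without the libraries N49 and N1, not called either (edgeR adjusted p = 0.0894). In Snf5-null tumours 4 of the 22 targets were lower and 0 higher with the Myf5 label than with TATCre. Of all genes, 4.97% were called there. The 4 were Ccn1, called in 26 of 26 recomputed settings, Ccn2 in 24, Fjx1 in 21 and Igfbp3 in 10. In combined tumours edgeR called 0 either way, beside 1.82% of all genes. At an unadjusted p below 0.05 it gave 2 higher and 9 lower in Snf5-null tumours and 3 higher and 6 lower in combined tumours.

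**Figure D5:**
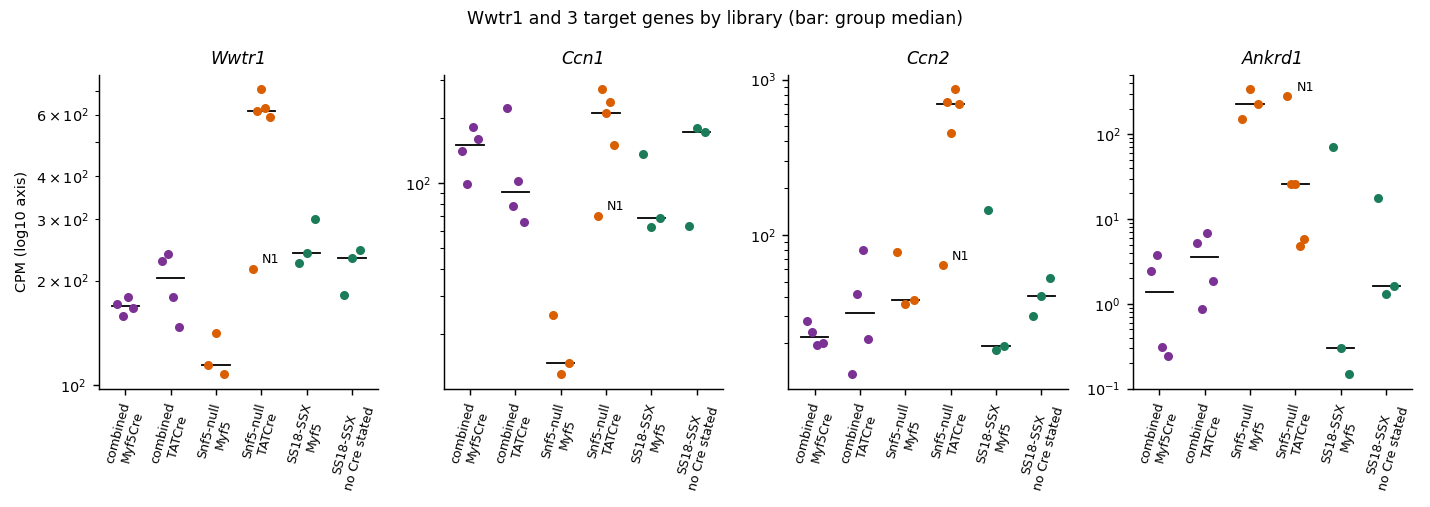
Level of Wwtr1 and of the targets Ccn1, Ccn2 and Ankrd1 in every library (vertical axes: CPM on a log10 scale) by group. Points are libraries, bars are group medians, and N1 marks the Snf5-null TATCre library that stood apart. In Snf5-null tumours Wwtr1, Ccn1 and Ccn2 are low in the 3 Myf5 libraries, while Ankrd1 is high in them and in N1.

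Regulators upstream of YAP and TAZ were called in both directions. The list held 25 genes of the Hippo cascade and its regulators, all tested (3 of which, Amotl2, Lats2 and Ptpn14, are also targets above). In combined against Snf5-null tumours 3 were higher and 4 lower, beside 29.1% and 20.5% of all genes, so nothing is read from these counts. The list median was 0.17, against 0.23 for all genes. Besides Amotl2, the higher ones were the kinase Taok2 (0.54 ± 0.14, edgeR adjusted p = 0.00526) and the tumour suppressor Nf2 (0.49 ± 0.12, edgeR adjusted p = 0.00224). The lower ones were the kinase Taok3 (-1.73 ± 0.27, edgeR adjusted p = 5.61e-05), the scaffold Amotl1 (-1.42 ± 0.38, edgeR adjusted p = 0.00471), the kinase activator Mob1a (-0.66 ± 0.19, edgeR adjusted p = 0.00777) and the core kinase Stk4 (-0.50 ± 0.13, edgeR adjusted p = 0.00531). Taok3 lay without overlap, as 9.33% of all genes did, at 3.91 to 21.2 CPM in combined and 23.6 to 46.1 CPM in Snf5-null libraries. The Taok2 call was met in 22 of 30 settings. It was lost without the Snf5-null Myf5 library N31 or N33 or the combined Myf5Cre library N1 or N4. The all-gene median was then 0.07 to 0.10 in place of 0.23. The Nf2 call was lost without the Snf5-null Myf5 library N33. Without the Snf5-null Myf5 library N33 1 gene was higher, and without the Snf5-null TATCre library N49 or the combined TATCre library N49 or 78780 5 were. Without the combined library N49 and the Snf5-null library N1 together, a setting chosen after seeing the data, 8 in place of 4 were lower.

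In combined against SS18-SSX tumours 3 of the 25 regulators were higher and 7 lower, beside 23.1% and 21.9% of all genes. The list median was -0.13, against -0.09. The largest were all lower, in the atypical cadherins Dchs2 (-4.15 ± 0.67, edgeR adjusted p = 0.000132) and Fat4 (-2.92 ± 0.57, edgeR adjusted p = 0.000614) and in the scaffolds Amotl1 (-1.71 ± 0.39, edgeR adjusted p = 0.00202) and Amot (-1.48 ± 0.28, edgeR adjusted p = 0.000548). All 4 lay without overlap, beside 8.38% of all genes. Amot for example was at 25.8 to 61.5 CPM in combined and 97.5 to 136 CPM in SS18-SSX libraries. The count of higher genes was 5 without any 1 Snf5-null TATCre library or without the combined TATCre library 78780. In Snf5-null against SS18-SSX tumours 4 were higher and 8 lower, beside 22.3% and 25.9% of all genes (list median -0.29, against -0.06). Dchs2 (-3.64 ± 0.69, edgeR adjusted p = 0.000317), Fat4 (-2.63 ± 0.59, edgeR adjusted p = 0.00131) and Amot (-2.01 ± 0.30, edgeR adjusted p = 3.31e-05) were lower here too, and the scaffold Wwc1 as well (-3.57 ± 1.01, edgeR adjusted p = 0.00705). Higher were the adaptor Sav1 (1.03 ± 0.19, edgeR adjusted p = 0.000276), Mob1a (1.02 ± 0.21, edgeR adjusted p = 0.000604), Rassf1 (0.84 ± 0.18, edgeR adjusted p = 0.000915) and Stk4 (0.60 ± 0.14, edgeR adjusted p = 0.00233). In Snf5-null tumours Fat4 was also lower with the Myf5 label than with TATCre (-3.95 ± 0.91, edgeR adjusted p = 0.0183), a call lost without any 1 of the 3 Snf5-null Myf5 libraries.

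AP-1 factors, which often sit beside TEAD factors at enhancers, were mostly lower in combined against Snf5-null tumours, with 6 of 7 genes lower and 0 higher by edgeR, at an unadjusted p below 0.05 and by DESeq2 too (list median -1.66, against 0.23), beside 20.5% of all genes lower. All 12 macrophage markers and 7 of 11 fibroblast and matrix markers were lower in the same comparison, and their part in the AP-1 levels was not tested. The largest changes were in Fosl1 (-5.13 ± 0.92, edgeR adjusted p = 0.000223), Jun (-2.31 ± 0.33, edgeR adjusted p = 2.48e-05), Fosl2 (-1.93 ± 0.42, edgeR adjusted p = 0.00122) and Junb (-1.66 ± 0.43, edgeR adjusted p = 0.00418). In Snf5-null against SS18-SSX tumours 4 were higher and 1, Fosb, lower (a call met in 10 of 30 settings). In combined against SS18-SSX tumours 2, Fosb and Jun, were lower and 0 higher, also unadjusted and by DESeq2. Of all genes 22.3% were higher and 25.9% lower in the first comparison, and 23.1% and 21.9% in the second. Fosb in the second ran from -4.11 to -0.41 over the settings. Between the SS18-SSX groups, Fosb was -3.44 for the Myf5 label against no Cre stated. That difference was called in 26 of 26 settings, beside 2.11% of all genes called. Each of these groups is its own number series, so the label and the series cannot be told apart in it. The summed level of the 7 genes was 1044 CPM in the combined TATCre library N49, which also had the outlying Vgll3 level, against 146 to 271 CPM in the other 7 combined libraries, 722 to 1031 CPM in Snf5-null and 211 to 715 CPM in SS18-SSX libraries. Library N49 was thus just above the Snf5-null range for both, while its Smarcb1 level was within the combined range. Of the other TEAD-binding proteins, Vgll1 did not pass the filter, and Fam181a and Fam181b were low. Fam181b averaged 4.71 ± 4.18 CPM in combined, 1.46 ± 1.98 CPM in Snf5-null and 11.5 ± 18.0 CPM in SS18-SSX tumours (SD, n = 8, 8 and 6). It was called higher in combined against Snf5-null tumours (3.06 ± 0.91, edgeR adjusted p = 0.0102), a call lost without the combined TATCre library 78774. Fam181a was at most 0.0581 CPM in Snf5-null libraries and reached 7.21 CPM in combined Myf5Cre and 3.91 CPM in SS18-SSX libraries. It was at 0 in every combined TATCre library. The Myf5 label against TATCre gave 9.16 in combined tumours, called in 22 of 26 settings, beside 1.82% of all genes called. Without the libraries N49 and N1 this value was 9.13 and not called (edgeR adjusted p = 0.0673).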

How the data were processed

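RNA-seq was done on 22 mouse tumours. Per the labels' protocols, the kits were RNeasy Mini for RNA and TruSeq Stranded mRNA for libraries. Tools in the submitters' processing notes are STAR 2.7.5a, cutadapt, RSEM, featureCounts and DESeq2, with the build mm10. What the authors deposited are raw whole-number counts for 48440 Ensembl gene IDs. Of these, 48058 were matched to symbols and positions in GENCODE M21 (GRCm38, the assembly of mm10).

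In R 4.3.3 with edgeR 4.0.16, filterByExpr on the 6 groups (minimum count 10, total 15) kept 18929 genes with 99.91% of the counts. After TMM scaling, all 22 libraries entered 1 quasi-likelihood fit with a mean for each group. Genotype comparisons set the mean of 2 groups against the mean of 2 others, with Benjamini-Hochberg adjustment over all tested genes and a threshold of 0.05. Standard errors are the log2 fold change over the square root of F. CPM are TMM-scaled, and log2 CPM have a prior count of 2. The model was also run on simulated data, with the same mean per gene in all groups except for a small set of changed genes. That run does not cover differences as widespread as those seen here.

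The members and lists were chosen with earlier results of these data known. The text names all members and, from each list and comparison, up to 4 called genes in each direction with the largest fold change, plus Ccn1, Ccn2 and Ankrd1. The alternatives were RLE scaling, DESeq2 1.42.0, no filter, genotype alone, each Cre group alone, N43L and N43R summed, and leaving out each library. For the Cre comparisons, RLE scaling, no filter, the summed libraries and the left-out libraries were run (26 settings). Leaving out the combined library N49 with the Snf5-null library N1 was added after seeing the data. Promoters come from RefSeq (GRCm38.p6). Protein sequences were not used here. The replicates closest to each other still differed by far more than sampling noise, at a chi-square per gene of 35.3, so none was counted as a duplicate. Counting error is small beside the spread between libraries except for genes with few counts.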

Additional observations from a re-analysis of the deposited data

Results flagged for a closer look

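In 6 of 36 groups of 4 or 5 libraries tested over the 9 members and the targets Ccn1, Ccn2 and Ankrd1, 1 library lay apart from the rest by Dixon's criterion. Chance flags about 1 in 20 groups, but the members were chosen with their levels known and 3 of the 6 flags come from 1 library, so the count is a description. Tead1 was highest in the Snf5-null TATCre library N51, at 218 CPM. Tead2 was highest in the combined TATCre library 78780, at 86.6 CPM. Vgll3 was highest in the combined TATCre library N49, at 299 CPM, against 0.617 to 6.37 CPM in the other 3 of that group. The Snf5-null TATCre library N1 was apart in 3 genes, with Wwtr1 at 216 CPM against 592 to 712 CPM in the other 4, Vgll2 at 6.68 CPM, and Ankrd1 at 282 CPM against 4.81 to 26.0 CPM in the other 4. The cause of these values was not tested.

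The effect of the Cre label (Myf5 minus TATCre) differed between Snf5-null and combined tumours in 5 of the 53 tested genes of the target, Hippo, AP-1 and TEAD-binding lists, all 5 of them targets, beside 2.42% of all genes, by edgeR's interaction test with adjustment over all genes. Ccn1 had -3.44 ± 0.54 (SE) in Snf5-null and 0.31 ± 0.44 in combined tumours, a difference of -3.74 (adjusted p = 0.00938). F3 had 2.92 ± 0.92 in Snf5-null and -2.50 ± 0.97 in combined tumours, a difference of 5.42 (adjusted p = 0.0385). Ccdc80 had -3.23 ± 1.06 in Snf5-null and 2.97 ± 0.96 in combined tumours, a difference of -6.20 (adjusted p = 0.0296). Dock5, a Rac exchange factor, had -1.17 ± 0.59 in Snf5-null and 2.20 ± 0.58 in combined tumours, a difference of -3.37 (adjusted p = 0.0382). Rbms3 had -3.53 ± 1.02 in Snf5-null and 1.80 ± 0.86 in combined tumours, a difference of -5.33 (adjusted p = 0.0394). Apart from Ccn1 in Snf5-null tumours, none of these single effects was called within its own genotype. Of 26 recomputed settings the difference was called in 25 for Ccn1, 22 for Ccdc80, 13 for Dock5, 12 for F3 and 11 for Rbms3. Without the combined TATCre library N49 that of F3 was 2.57 and not called. The groups hold 3 to 5 libraries each, and the lists were chosen with earlier results of these data known.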

How the results depend on the processing

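Of 360 recomputed counts of list genes 318 stayed within 1.5 times the main count. Targets called higher in combined against Snf5-null tumours were 2 in place of 6 in the TATCre groups (6 to 7 with 1 library left out). Targets called higher in combined against SS18-SSX tumours were 3, but 0 with RLE scaling, 0 with no filter, 1 with genotype alone, 1 in the Myf5-labelled groups, 0 in the TATCre groups and 5 with N43L and N43R summed (0 to 5 with 1 library left out). Targets lower there were 12 in place of 7 with DESeq2. Targets lower in Snf5-null than in SS18-SSX tumours were 3 in place of 9 in the TATCre groups. Hippo regulators called higher in combined against Snf5-null tumours were 1 with no filter and 0 in the TATCre groups, in place of 3 (1 to 5 with 1 library left out), and lower ones 8 in place of 4 without the combined library N49 and the Snf5-null library N1. Hippo regulators called higher in combined against SS18-SSX tumours were 0 with no filter, 1 in the Myf5-labelled groups, 0 in the TATCre groups and 5 with N43L and N43R summed, in place of 3 (2 to 5 with 1 library left out), and lower ones 4 in place of 7 in the TATCre groups. Hippo regulators higher in Snf5-null than in SS18-SSX tumours were 2 in place of 4 in the Myf5-labelled groups. Of 810 recomputed member fold changes 788 moved by less than the SD between libraries within groups, 21 moved more, and 1 of those called with all libraries changed sign, Wwtr1 for combined against Snf5-null tumours at 0.33 in the Myf5-labelled groups. Values not called with all libraries changed sign in 13 more cases (Tead3 for combined against Snf5-null tumours in 7, Vgll2 for combined against SS18-SSX tumours in 3, and for Snf5-null against SS18-SSX tumours Tead1 in 2 and Wwtr1 in 1). Of list genes 12 values reversed. In the TATCre groups Ccn1 was -0.76 for combined against Snf5-null, -0.34 for combined against SS18-SSX and 0.42 for Snf5-null against SS18-SSX tumours, Fam181b was -0.21 for combined against Snf5-null and Nuak2 -0.19 for combined against SS18-SSX tumours. In the Myf5-labelled groups Ccn2 was -0.28 and Fosb 0.66 for Snf5-null against SS18-SSX tumours. With genotype alone Ccn1 was -0.051 for combined against Snf5-null and 0.26 for Snf5-null against SS18-SSX tumours. Without the libraries N49 and N1, Ccn1 was -0.050 for combined against SS18-SSX tumours. Without the SS18-SSX Myf5 library N381, Ankrd1 was 1.01 and Ccn2 0.074 for combined against SS18-SSX tumours, the highest values with 1 library left out, and the lowest were -2.68 and -1.06. The cause of these changes was not tested. Fits on the Myf5 or TATCre groups hold fewer libraries. No paired analysis was possible because the tags shared between groups (N49, N1 and N2) tie fewer than 2 libraries of any pair of groups, and the replicate numbers follow the order of the samples only. At the depth of these libraries Vgll2, Tead4 and Fam181a rest on few counts.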
